A study of Homo sapiens with 36 samples.

Results

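The genes described here are the collagen chain genes and the laminin chain genes of the human genome, taken as every gene whose symbol is COL, a number, A and a number, or LAM followed by A, B or C and a number. The rule found 56 genes, 44 collagens and 12 laminins, among the 62710 genes of the deposited tables. It reads symbols only and uses no measured value.

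Collagens are secreted proteins built as triple helices of alpha chains, and the classes differ in what they assemble into. Fibrillar collagens form the fibrils of connective tissue, collagen IV forms the network of basement membranes, FACIT collagens decorate fibrils, and laminins are heterotrimers of an alpha, a beta and a gamma chain that start the assembly of a basement membrane. In the embryo the early epithelium and the neural tube rest on laminin and collagen IV sheets, and mature neurons of the central nervous system make little fibrillar collagen.

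The study used H9, an established human embryonic stem cell line, in which doxycycline switches on NGN2, a proneural transcription factor that drives stem cells into neurons. The protocols given with the samples are the same for every group: stem cells were kept on Geltrex, a basement membrane extract that itself contains laminin and collagen IV, in mTeSR Plus, and induced cultures were kept in Neurobasal-A with B27, GDNF and NT3. The groups were WT, HET (RAI1+/− in the series text) and KO (RAI1−/−), each taken at day 0 of NGN2-driven differentiation and again at day 3 and day 7. RAI1 encodes a nuclear chromatin regulator. There were 4 libraries in each of the 9 groups and 36 in all, and the labels call them biological replicates without saying what was separate, so p-values measure the spread between these samples. The labels give neither the edit made in RAI1, nor the number of clones behind each genotype, nor how the NGN2 cassette was introduced.

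RAI1 RNA was not lower in the mutants. It ranged from 23.9 to 43.1 CPM (counts scaled to the library total) in WT and from 25.3 to 53.8 CPM in KO at day 0, and from 34.5 to 66.7 CPM in WT and from 61.0 to 86.5 CPM in KO at day 7, where it was called higher in KO (log2 difference 0.69 ± 0.22 SE, edgeR adjusted p = 0.0296). A count over the whole gene also takes in transcripts of an edited allele, so it does not check the labels, and WT, HET and KO stand throughout for the libraries that carry those labels. Library totals ran from 23.95 to 56.68 M counts. The summed CPM of 6 neuron markers in WT ran from 249 to 511 at day 0 and from 5170 to 10100 at day 7, and that of 6 pluripotency markers from 2800 to 3540 and from 63.9 to 105.

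The collagen IV genes come in pairs that start head to head on opposite strands, and the stretches between their starts are shown because the paired chains did not keep their ratio in these cells. Sequences are from RefSeq on GRCh38.p14, in which 41 of the 56 genes had a promoter entry. Capitals mark the motif CCAAT, the GC box GGGCGG, and the E-box written CANNTG, each searched on both strands, and no base lay in more than 1 of these motifs. The first stretch, chr13:110307158-110307283 on the plus strand, holds the 126 bases between the starts of COL4A1 and COL4A2, which lie 127 bases apart. The second, chrX:108439588-108439837 on the plus strand, holds the 250 bases before the start of COL4A5, whose partner COL4A6 starts 380 bases away in the other direction.
COL4A1-COL4A2: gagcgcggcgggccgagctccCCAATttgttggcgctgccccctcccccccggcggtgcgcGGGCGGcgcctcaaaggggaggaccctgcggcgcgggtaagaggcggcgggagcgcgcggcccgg
COL4A5: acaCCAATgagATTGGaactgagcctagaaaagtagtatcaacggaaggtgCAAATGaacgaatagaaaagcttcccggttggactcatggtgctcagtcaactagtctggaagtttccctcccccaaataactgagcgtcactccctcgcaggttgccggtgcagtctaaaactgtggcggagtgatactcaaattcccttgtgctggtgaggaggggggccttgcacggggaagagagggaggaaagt
The COL4A1-COL4A2 stretch is 80.2% G or C and has 1 CCAAT and 1 GGGCGG, motifs found in 21.1% and 34.6% of the 35116 RefSeq promoters in a window of the same length and place. The COL4A5 stretch is 51.2% G or C and has 2 CCAAT and 1 CANNTG, found in 32.0% and 61.8% of promoters over the same 250 bases. These matches describe letters and not binding sites.

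Over all 36 libraries the most abundant of these RNAs per length was COL6A1, a chain of the beaded collagen VI microfibrils, with a mean of 38.2 TPM (transcript abundance corrected for length and depth) over the 9 groups. LAMB1 followed at 28.8 TPM, COL1A1 at 24.7, LAMC1 at 20.2, COL4A2 at 18, COL26A1 at 16, COL18A1 at 14.9 and COL1A2 at 12.3. The genes together took 0.295% ± 0.0825 of all counts in WT at day 0 (SD, n = 4), 0.212% ± 0.0316 at day 3 and 0.115% ± 0.0147 at day 7, and 0.0803% ± 0.0119 in KO at day 7. Of the 56 genes, 39 had a mean of at least 1 CPM in WT at day 0, 31 in WT at day 7 and 26 in KO at day 7. COL22A1 had no count in any of the 12 WT libraries, and COL6A5 had no count in any KO library at day 3 or WT library at day 7.

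**Figure D1:**
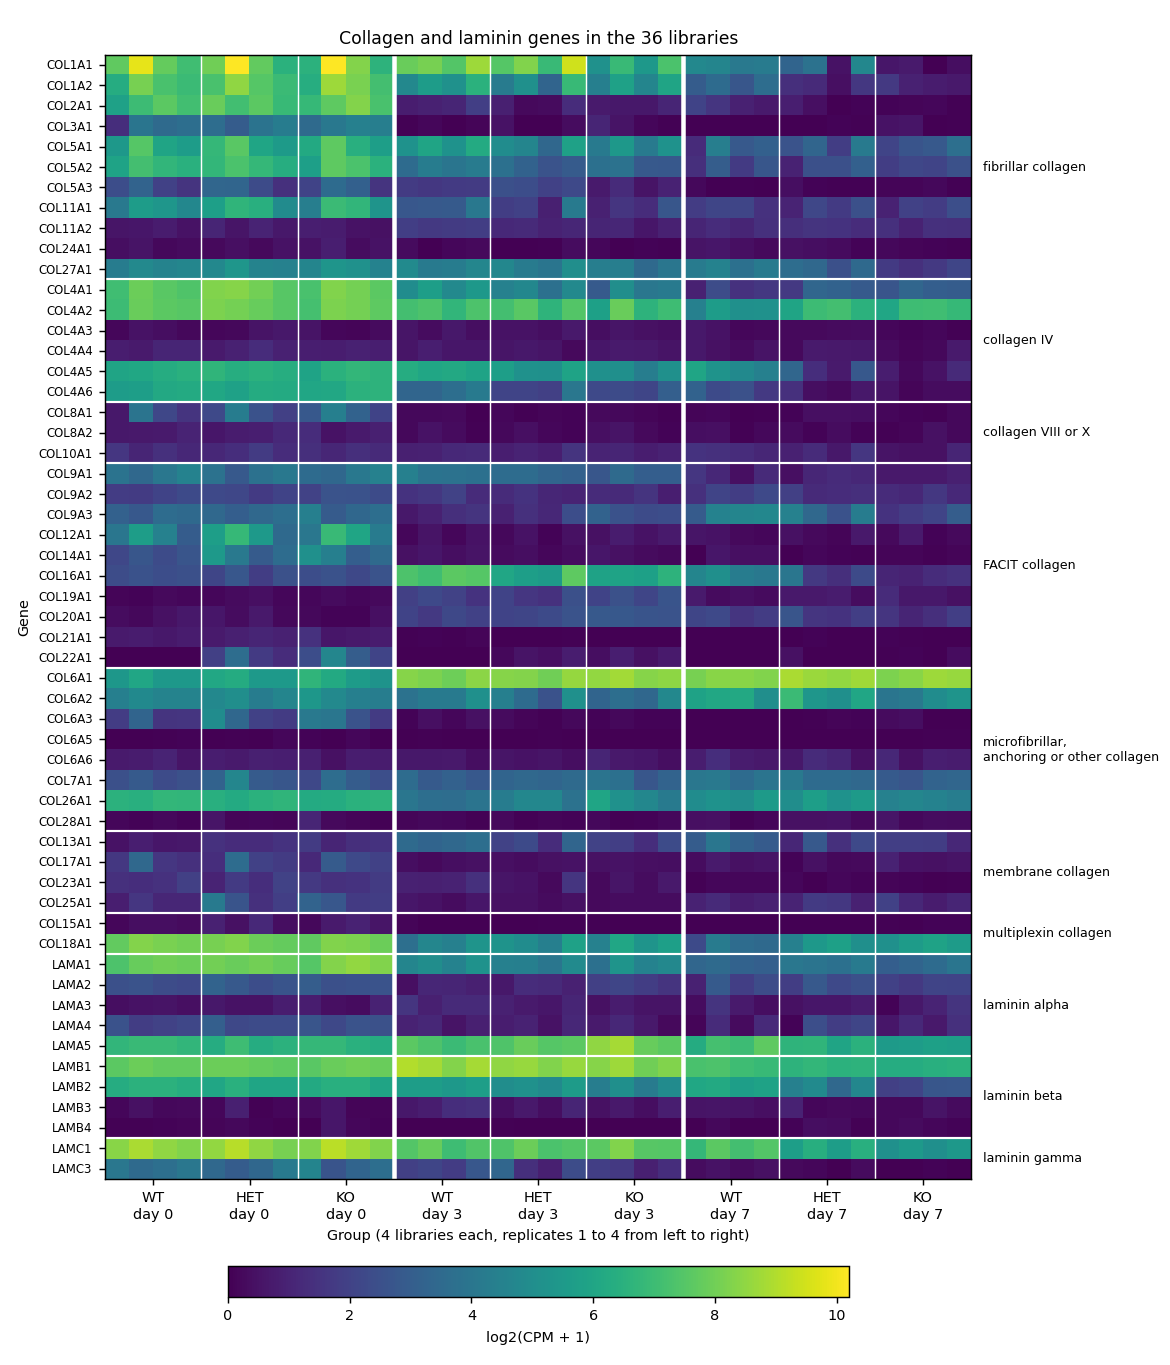
Log2(CPM + 1) of 55 of the 56 genes (rows, grouped by class) in each of the 36 libraries (columns, replicates 1 to 4 from left to right in each group). COL2A1 and COL12A1 are brighter in every day 0 library than in any later one, COL6A1 is the brightest row in every day 7 library, and COL4A5, LAMB2 and LAMC1 are darker in KO than in WT at day 7.

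The make-up of this RNA turned over during induction. Fibrillar collagens held 28.1% ± 8.9 of the summed TPM of the 56 genes in WT at day 0 (SD, n = 4) and 4.64% ± 0.467 at day 7, while the class that contains collagen VI went from 13.1% ± 1.99 to 45.0% ± 2.49. At day 7 that class held 58.8% ± 2.91 in HET and 61.4% ± 2.12 in KO. Laminin gamma chains held 8.51% ± 1.31 in WT at day 7, 3.94% ± 0.479 in HET and 2.64% ± 0.439 in KO, ranges that did not overlap between WT and either mutant.

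**Figure D2:**
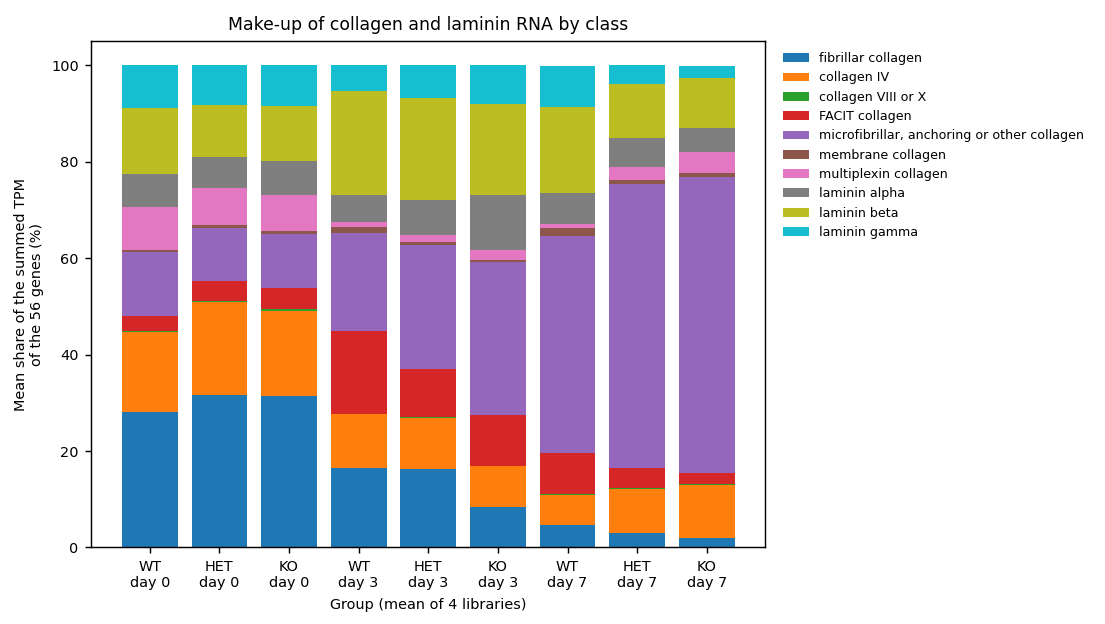
Mean share (%) of the summed TPM of the 56 genes held by each of 10 classes in each group (4 libraries per group; bars stack to 100%). The purple segment, which contains COL6A1, grows from 13.1% in WT at day 0 to 61.4% in KO at day 7, and the fibrillar segment shrinks from 28.1% to 1.99%.

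In WT cells most of these genes moved between days 0 and 3. Of 51 that passed the filter on low counts, 11 rose and 25 fell, against 31.2% of all 22268 genes tested that rose and 28.7% that fell. The median log2 difference was -0.82 over the 51 genes and 0.07 over all genes tested. On log2(TPM + 1) with limma the split was 6 and 35, with 14157 of all genes called against 13351 by edgeR. Between days 3 and 7, 10 of 51 rose and 22 fell, beside 23.3% and 22.9% of all genes, with medians of -0.46 and 0.01.

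Of the 11 fibrillar chains 5 fell and 1 rose between days 0 and 3 in WT, beside 28.7% and 31.2% of all genes. Between days 3 and 7, 7 fell and 1 rose, beside 22.9% and 23.3%. COL2A1, the collagen of cartilage fibrils that is also made by early embryonic epithelia, had 56.2, 125, 199 and 136 CPM in the 4 WT libraries at day 0 and 0.76, 0.913, 1.08 and 2.72 CPM at day 3 (log2 difference -6.42 ± 0.58 SE, edgeR adjusted p = 3.81e-07). COL3A1, the partner of collagen I in soft tissue fibrils, fell by 6.88 on the log2 scale to a mean of 0.0746 CPM. Its neighbour on chromosome 2, COL5A2, a chain of fibril-seeding collagen V, fell by 2.54. COL1A1, the main chain of collagen I, was not called between days 0 and 3, with 207, 897, 222 and 135 CPM at day 0 and 232, 271, 176 and 420 CPM at day 3, and then had 26.1, 23.7, 16.2 and 17.7 CPM at day 7. The day 7 libraries were below every day 3 library (log2 difference -3.63 ± 0.53 SE, edgeR adjusted p = 5.93e-05). Its partner COL1A2 had 78.7, 275, 153 and 124 CPM at day 0, 26.3, 48.9, 35 and 90.3 at day 3, and 6.8, 10.7, 5.56 and 11.5 at day 7, and fell at both steps, though the call from day 0 to day 3 was lost with the share of small structural RNAs as a covariate. That share ran from 4.51% to 6.42% in WT at day 0 and from 8.99% to 19.6% at day 3. The covariate thus cannot be told apart from the day, and with it 9795 of all genes were called against 13351.

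Replicate 2 stood high at day 0 in all 3 genotypes for COL1A1. It had 897 CPM in WT, 1170 in HET and 1150 in KO, while the other 9 day 0 libraries ran from 90.1 to 311 CPM. COL12A1 was also highest in replicate 2 of each genotype, at 50.3, 114 and 120 CPM.

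In other collagen classes rises and falls were mixed between days 0 and 3, beside 31.2% of all genes that rose and 28.7% that fell. There were 2 rises and 2 falls among the 6 tested genes of the class that contains collagen VI. Among 9 FACIT collagens there were 3 rises and 4 falls. COL6A1 had 40.6, 64.5, 41.7 and 42.7 CPM in WT at day 0, 321, 289, 248 and 341 at day 3 and 273, 335, 337 and 303 at day 7. Every later library was above every day 0 library (day 3 log2 difference 2.78 ± 0.19 SE, edgeR adjusted p = 2.53e-08). COL6A2, its neighbour on chromosome 21 and partner in the collagen VI trimer, had 20.1, 27.9, 22.4 and 22.6 CPM at day 0 and 13.2, 17.1, 16.7 and 33.4 at day 3 and was not called there, and rose between days 3 and 7 by 1.58 ± 0.3 SE. COL6A3, the remaining chain of that trimer, was at 0 in all 4 WT libraries at day 7, at least 2.92-fold lower than at day 3. COL16A1, a FACIT collagen, had 4.21, 4.97, 4.28 and 4.66 CPM at day 0, 161, 134, 198 and 182 at day 3, and 23.8, 32.6, 18.6 and 15.7 at day 7, so it rose by 5.34 and then fell by 2.82 on the log2 scale.

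Basement membrane chains parted ways. COL4A1 had 132, 240, 189 and 166 CPM in WT at day 0, 30.4, 51.8, 26.9 and 42 at day 3 and 0.919, 4.19, 1.73 and 2.15 at day 7, while COL4A2 had 126, 235, 197 and 185, then 139, 164, 103 and 162, then 20.8, 48, 33.4 and 34.5 CPM. The 2 chains assemble as COL4A1, COL4A1, COL4A2 trimers. Their counts were about equal at day 0, with COL4A2 to COL4A1 ratios between 0.952 and 1.12 in WT, and the ratio was 3.18 to 4.57 at day 3 and 11.4 to 22.7 at day 7. HET libraries gave ratios of 6.52 to 7.7 at day 3, above every WT library, and KO libraries 6.09 to 8.39, while at day 7 the 3 genotypes overlapped. These are ratios of counts without a length correction, so they can be compared between groups and not read as chain numbers. The genes overlap at their starts in the GENCODE annotation and the use of strand in counting is not given in the sources used here, so reads in the overlap cannot be assigned to 1 of them.

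COL18A1, a basement membrane collagen whose end fragment is endostatin, fell by 3.35 ± 0.4 SE from day 0 to day 3 in WT. LAMA1, the alpha chain of the first embryonic basement membranes, had a mean of 220 CPM at day 0 and 28.1 at day 3 in WT and fell by 2.84, and fell by a further 1.57 to day 7. LAMA5, the alpha chain of most later basement membranes, had 103, 118, 120 and 105 CPM at day 0 and 195, 162, 122 and 155 at day 3. Its rise of 0.62 ± 0.23 SE (edgeR adjusted p = 0.0309) turned to -0.28 on log2(TPM + 1), where the median of all genes was -0.38, and the call was lost without WT day 0 replicate 1 or 4 or WT day 3 replicate 1 or 4. LAMB1, the common beta chain, rose by 1.12 ± 0.14 SE to a mean of 435 CPM at day 3 and fell by 1.54 ± 0.15 to 138 CPM at day 7, and the rise was not called on log2(TPM + 1). LAMB2, the beta chain of synaptic and vascular basement membranes, fell by 0.72 and then rose by 0.45, a rise not called on log2(TPM + 1). LAMC1, the common gamma chain, fell by 0.97 to day 3, and that call was lost when the share of small structural RNAs was a covariate. As given above for COL1A2, that share did not overlap between these days in WT.

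At day 0, before induction, few of the genes differed between genotypes. In KO against WT, 2 of 51 genes tested were higher and 0 lower, while 1.66% of all 20437 genes tested were higher and 0.416% lower. In HET against WT the same 2 were higher, beside 1.22% higher and 0.411% lower among all genes. KO and HET differed in 0 of the 51 by edgeR, with 0 at an unadjusted p under 0.05 and 0 by DESeq2, beside 0.524% of all genes higher and 0.333% lower. Median log2 differences over the 51 genes were 0.39 in KO and 0.26 in HET against 0.01 over all genes. Same-numbered libraries deviated together in KO against WT at days 0 and 3 and in HET against WT at day 3, and with the replicate number as a block the KO count at day 0 was 4, with COL4A6 and COL14A1 added. Over all genes 960 were called with that block and 425 without it.

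The first of the 2 was COL22A1, a FACIT collagen of tissue junctions on chromosome 8. It had 0 counts in every WT library, 2.81, 11.4, 2.3 and 1.43 CPM in HET at day 0 and 4.27, 24.3, 7.1 and 3.29 CPM in KO. Against a floor of 3 counts, its mean was at least 115-fold higher in KO and at least 53.2-fold higher in HET. At day 3 it had 0.177, 0.451, 0.318 and 0.782 CPM in HET and 0.312, 0.824, 0.357 and 0.679 in KO, at least 6.39-fold and 8.02-fold above the floor in WT. At day 7 it had 0.364, 0, 0 and 0 CPM in HET and 0.047, 0.0675, 0 and 0.271 in KO, and did not pass the filter. Without replicate 2 of all 3 genotypes, left out after the data were seen, the count of 2 stood in both mutants.

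The second was COL13A1, a collagen anchored in the cell membrane and concentrated at neuromuscular junctions. WT libraries had 0.415, 0.798, 0.542 and 0.579 CPM at day 0, HET libraries 1.76, 1.46, 1.42 and 1.79, and KO libraries 2.43, 1.1, 1.56 and 1.79. Every mutant library was above every WT library (KO log2 difference 1.58 ± 0.27 SE, edgeR adjusted p = 0.00663, and HET 1.47 ± 0.27, 0.0136). The HET call was lost without WT replicate 1, 3 or 4, which left 1 gene called.

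The direction for COL13A1 was the other way at day 3. WT libraries then had 10.6, 8.75, 9.81 and 11.7 CPM and KO libraries 3.01, 2.7, 1.53 and 4.01 (log2 difference -1.84 ± 0.48 SE, edgeR adjusted p = 0.0147). HET libraries had 2.99, 3.88, 1.43 and 9.1 CPM, so replicate 4 of HET lay among the WT libraries, and HET was not called. The change of the KO to WT difference from day 0 to day 3 was itself called, at -3.38 ± 0.64 SE (edgeR adjusted p = 0.000862).

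At day 3 the KO changes split in both directions. Of 48 genes tested, 7 were higher and 7 lower in KO, beside 12.6% higher and 8.93% lower among all 21563 genes, and the medians were -0.38 for the 48 genes and -0.05 for all. With the replicate block the count was 26 (9 higher, 17 lower), adding COL1A1, COL4A1, COL4A6, COL16A1, LAMB1 and 7 others. On log2(TPM + 1) with limma it was 1 higher and 0 lower, with a median of 0.2 over all genes. Of all 21563 genes, 4649 were called by edgeR without the block, 8138 with it and 816 with limma. By class, 3 of 9 FACIT collagens tested rose and 1 fell, 2 of 10 fibrillar chains fell, and of 5 laminin alpha chains 2 rose and 1 fell. Leaving out any single library gave 14 to 17 genes. Leaving out replicate 4 of all 3 genotypes, chosen after seeing the data, gave 20, and 6352 over all genes.

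Laminin alpha chains were among the rises. LAMA2, the alpha chain of muscle and Schwann cell laminin, had 0.351, 1.12, 1.08 and 0.861 CPM in WT and 2.86, 3.39, 2.57 and 1.88 in KO (1.64 ± 0.38 SE, edgeR adjusted p = 0.00783). LAMC1 had 175, 223, 130 and 170 CPM in WT and 199, 307, 188 and 179 in KO and was not called. LAMA5 had 360, 449, 224 and 198 CPM in KO, above the WT range of 122 to 195 (0.94 ± 0.21 SE, edgeR adjusted p = 0.00636). LAMA5 overlaps ADRM1 and an antisense gene, so part of its count cannot be assigned.

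Collagens that rose at day 3 were COL9A3, COL26A1, COL20A1 and COL22A1. COL9A3, a chain of the FACIT collagen IX of cartilage, had 0.584, 0.913, 1.59 and 1.89 CPM in WT and 8.24, 4.86, 4.02 and 4.25 in KO (2.06 ± 0.53 SE, edgeR adjusted p = 0.0139). HET libraries had 0.887, 1.67, 1.18 and 4.38 CPM, with only replicate 4 at the KO level. COL26A1 had 14.9, 11.8, 11.4 and 14.1 CPM in WT, 18.4, 25.3, 25.6 and 13.5 in HET and 61.9, 35, 25 and 17.5 in KO (1.38 ± 0.29 SE, edgeR adjusted p = 0.0043). The KO libraries did not overlap with WT but spread widely among themselves.

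COL1A1 had 34.3, 119, 41.9 and 156 CPM in KO at day 3, each below the WT range of 176 to 420, and was not called. It was called lower with the replicate block, with no filter, with only the 8 libraries of KO and WT, and without replicate 4 of all 3 genotypes, an alternative chosen after seeing the data.

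The falls at day 3 included COL4A5, LAMB2 and COL9A1, and of smaller RNAs COL11A2, COL5A3, LAMA3 and COL13A1. COL11A2, a fibrillar chain found with COL2A1 in cartilage, had 2.73, 2.25, 2.46 and 2.65 CPM in WT, 1.24, 1.35, 0.97 and 1.13 in HET and 1.07, 1.16, 0.535 and 0.919 in KO. All mutant libraries were below all WT libraries (KO -1.46 ± 0.26 SE, edgeR adjusted p = 0.00144). COL5A3, a chain of fibril-seeding collagen V, had 2.4, 2.13, 2.32 and 2.37 CPM in WT, 4.66, 4.25, 2.96 and 3.72 in HET and 0.675, 1.4, 0.458 and 0.963 in KO (KO -1.39 ± 0.3 SE, edgeR adjusted p = 0.0056). HET lay above WT and KO below it. LAMA3, an alpha chain of epithelial anchoring laminins, had 2.01, 0.842, 1.29 and 1.34 CPM in WT and 0.364, 0.735, 0.458 and 0.46 in KO, a fall of 1.42 ± 0.36 SE (edgeR adjusted p = 0.0133) that was 0.05 in the other direction on log2(TPM + 1). The median of all genes on that scale was 0.2. LAMA3 had 0.07 to 0.12 TPM in WT and 0.02 to 0.34 in KO, where adding 1 TPM leaves little room for a difference.

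**Figure D3:**
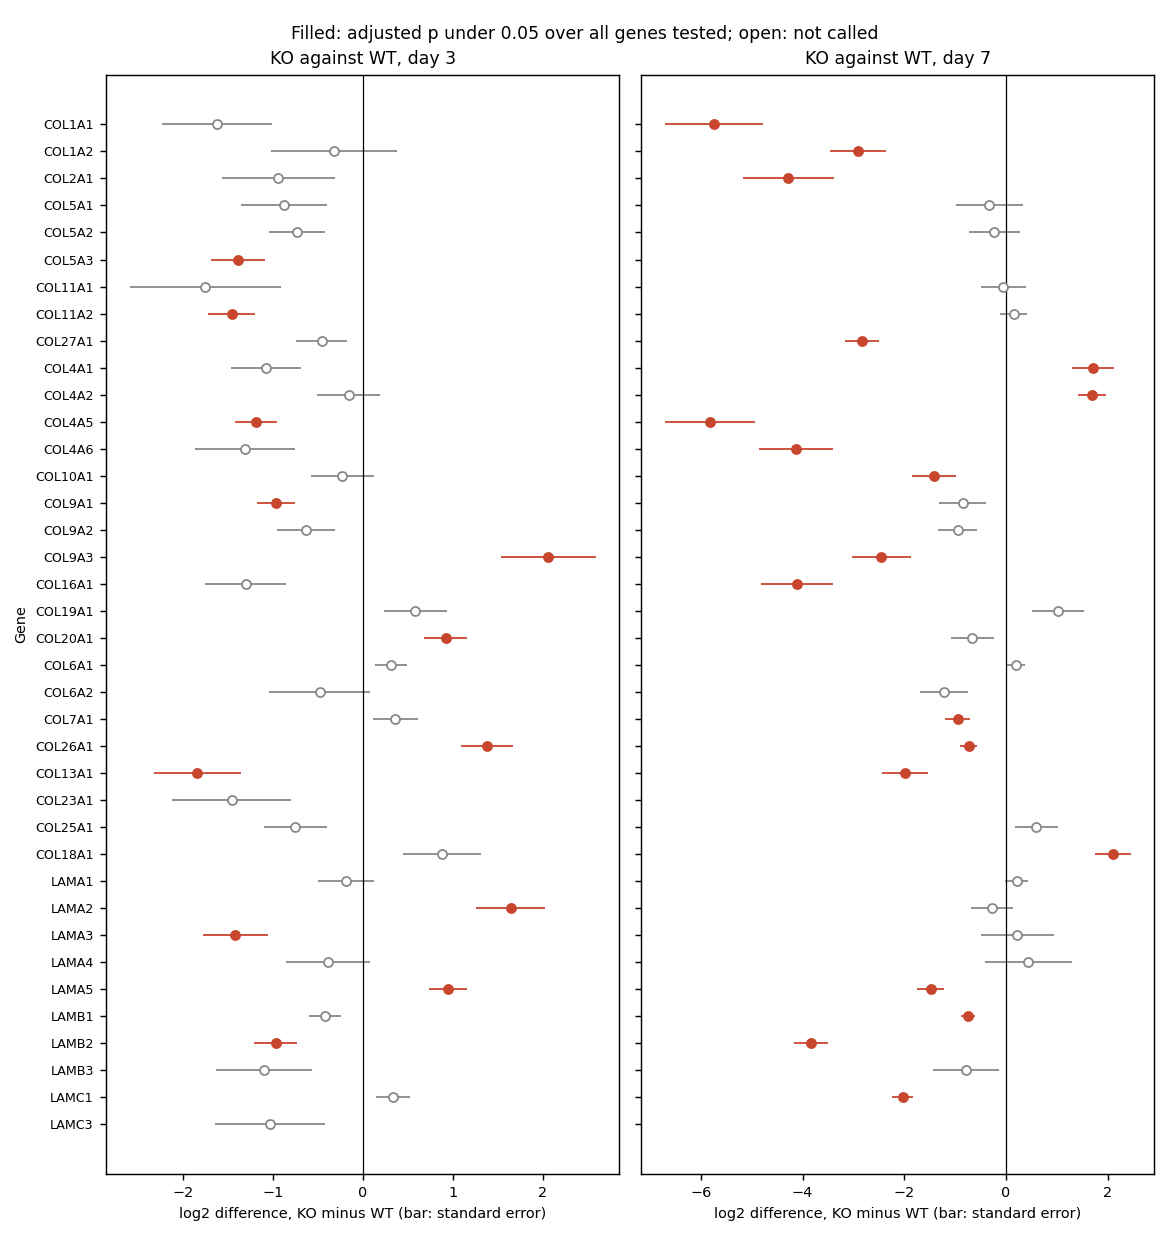
Log2 difference of KO minus WT at day 3 (left) and day 7 (right) for 38 genes with a mean of at least 1 CPM in a group of either comparison, COL22A1 left out because WT had no counts (points, edgeR estimates; bars, standard error; the 2 axes differ in range). The standard errors were derived from the test statistic. Filled points passed an adjusted p of 0.05 over all genes tested. LAMA5, COL9A3 and COL26A1 lie right of 0 at day 3 and left of 0 at day 7.

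In HET at day 3, 1 of 48 genes was called higher (COL22A1) and 1 lower (COL11A2), beside 2.52% and 0.761% of all genes. For COL11A2 the log2 difference was -1.1 ± 0.26 SE (edgeR adjusted p = 0.0316). That call was lost without any 1 of 7 of the 8 libraries, with library size alone, with no filter and with limma on log2(TPM + 1). With the replicate block the count was 7, adding COL5A2, COL4A5, COL4A6, COL16A1 and COL13A1, all lower. Without HET replicate 4 the count was 6, and without any other single library of WT or HET it was 1. Over all genes 708 were called with every library and no block, and 1895 with the block. The number was 385 to 534 without any other single library and 1416 without HET replicate 4. That library stood near WT for several genes: COL16A1 was 202 CPM there and 63.8, 52 and 45.7 CPM in the other HET libraries, where WT ran from 134 to 198 CPM. KO against HET at day 3 gave 0 higher and 1 lower, COL5A3 at -2.15 ± 0.31 SE (edgeR adjusted p = 0.00198), beside 2.77% and 1.58% of all genes. That count was 7 with the replicate block, 4 without KO replicate 4 and 2 without HET replicate 4. All genes called went from 937 to 2739, 1241 and 891 in the same order.

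By day 7 falls prevailed in KO. Of 43 genes that passed the filter, 3 rose and 18 fell, beside 17.0% and 15.6% of all 21714 genes tested. The median log2 difference was -0.73 over the 43 genes and -0.04 over all genes. Of these, 5 of 9 fibrillar chains tested fell, 5 of 10 laminins fell, and collagen IV had 2 rises and 2 falls among 5 tested. The count was 20 to 23 when single libraries were left out and 25 without replicate 1 of WT and HET, an alternative chosen after seeing the data. On log2(TPM + 1) with limma 0 rose and 6 fell, namely COL1A1, COL27A1, COL4A5, COL4A6, COL16A1 and LAMB2. Over all genes 7070 were called by edgeR with every library, 9016 without replicate 1 of WT and HET, and 1007 with limma. In bulk RNA, fewer cells of a type and less RNA per cell cannot be told apart.

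Among fibrillar chains COL1A1 had 26.1, 23.7, 16.2 and 17.7 CPM in WT at day 7, 8.81, 13.4, 0.403 and 25.4 in HET and 0.541, 0.652, 0.0257 and 0.301 in KO. Every KO library was at or under 0.652 CPM and every WT library at or over 16.2 (log2 difference -5.74 ± 0.96 SE, edgeR adjusted p = 0.000828), and HET spanned both. COL1A2 had 2.26, 0.922, 0.721 and 0.631 CPM in KO and 1.58, 1.29, 0.328 and 2.17 in HET against 6.8, 10.7, 5.56 and 11.5 in WT, below WT in every mutant library (KO -2.91 ± 0.55 SE, edgeR adjusted p = 0.00163, and HET -2.69 ± 0.54, 0.00624). COL2A1, already low, had 3.09, 1.96, 0.915 and 0.668 CPM in WT and 0.0706, 0.0899, 0.129 and 0.0301 in KO (-4.28 ± 0.9 SE, edgeR adjusted p = 0.00318). COL27A1, a fibrillar collagen of cartilage, fell by 2.83 ± 0.33 SE from a mean of 17.2 to 2.41 CPM. COL5A1, COL5A2, COL11A1 and COL11A2 were tested and not called.

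The collagen IV chains divided by pair. COL4A5, the X-linked chain mutated in most Alport syndrome, had 62.4, 36.4, 27.4 and 20.8 CPM in WT at day 7, 9.35, 1.55, 0.655 and 5.94 in HET and 0.753, 0.157, 0.412 and 1.32 in KO. The WT libraries were above all HET libraries, and HET overlapped with KO (KO -5.82 ± 0.89 SE, edgeR adjusted p = 0.000484, and HET -2.98 ± 0.76, 0.0201). COL4A6, its head-to-head partner, had 8.16, 3.94, 4.77 and 2.19 CPM in WT, 1.7, 0.315, 0.202 and 0.582 in HET and 0.447, 0.112, 0.257 and 0.271 in KO (KO -4.13 ± 0.73 SE, edgeR adjusted p = 0.00117, and HET -2.66 ± 0.67, 0.019). Both HET calls were lost without WT replicate 1 or HET replicate 2. At day 0 the same 2 genes overlapped between genotypes, with COL4A5 between 59.2 and 108 CPM in all 12 libraries, and at day 3 COL4A5 had 78.4, 64.4, 71 and 59.2 CPM in WT, 52, 34.4, 33.8 and 58.7 in HET and 33.9, 32.4, 19.1 and 33.3 in KO (KO -1.19 ± 0.23 SE, edgeR adjusted p = 0.00258).

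The other pair was higher. COL4A2 had 20.8, 48, 33.4 and 34.5 CPM in WT, 60.7, 127, 141 and 93.9 in HET and 65.3, 128, 134 and 112 in KO, and every mutant library was above every WT library (KO 1.69 ± 0.27 SE, edgeR adjusted p = 0.000638, and HET 1.55 ± 0.27, 0.00304). COL4A1 had 5.48, 9.26, 7.21 and 6.92 CPM in KO and 2.22, 9.43, 8.11 and 6.32 in HET against 0.919 to 4.19 in WT, where HET overlapped with WT and KO did not (KO 1.71 ± 0.41 SE, edgeR adjusted p = 0.00714, and HET 1.45 ± 0.41, 0.0307). The HET call for COL4A1 was lost without WT replicate 1, 3 or 4 or HET replicate 2, 3 or 4. COL18A1 had 3.84, 17.9, 11.3 and 10.3 CPM in WT, 20.6, 42.4, 54.7 and 32.8 in HET and 33.9, 47.8, 57 and 47.2 in KO, and no mutant library overlapped with WT (KO 2.11 ± 0.35 SE, edgeR adjusted p = 0.000835, and HET 1.72 ± 0.35, 0.0066). COL18A1 was at 205 to 315 CPM in the 12 libraries of day 0, above every library of day 7. COL18A1 overlaps antisense genes and SLC19A1. The remaining pair, COL4A3 and COL4A4, reached at most 1.42 CPM in any library.

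**Figure D4:**
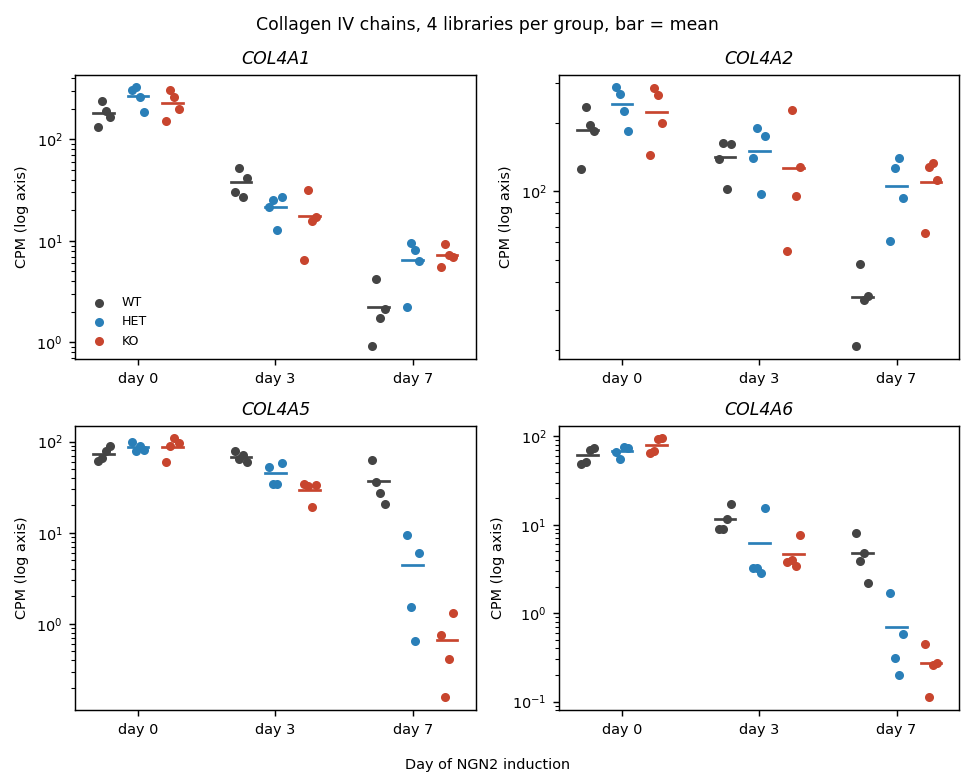
CPM of 4 collagen IV chains (log axes) in each library at days 0, 3 and 7 for WT, HET and KO (4 points per group; bar, mean). At day 7 the COL4A1 and COL4A2 means of both mutants lie above WT, and the COL4A5 and COL4A6 means lie below it.

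Of 7 FACIT collagens tested in KO at day 7, 2 fell, as did 2 of 6 microfibrillar, anchoring or other collagens and 1 of 3 membrane collagens, and none of these rose. Of all genes 17.0% rose and 15.6% fell, and counts this small are not read as results about a class. COL16A1 had 1.08, 0.944, 1.42 and 1.77 CPM in KO at day 7 and 15, 2.26, 1.56 and 3.88 in HET, below the WT range of 15.7 to 32.6 in every mutant library (KO -4.11 ± 0.7 SE, edgeR adjusted p = 0.000878). HET was not called, but was called lower with library size alone, DESeq2, limma, no filter, the replicate block or the small structural RNA covariate. COL9A3 had 6.55, 21.7, 24.2 and 25.5 CPM in WT and 1.81, 2.47, 3.27 and 6.98 in KO, groups that overlapped through WT replicate 1 (-2.45 ± 0.58 SE, edgeR adjusted p = 0.0064). COL13A1 had 6.83, 15, 8.6 and 6.66 CPM in WT, 1.11, 6.1, 1.64 and 3.76 in HET and 2.66, 2.7, 2.63 and 1.17 in KO (KO -1.99 ± 0.45 SE, edgeR adjusted p = 0.00503, and HET -1.65 ± 0.45, 0.0258). The HET call was lost without WT replicate 2 or 3 or HET replicate 3. COL26A1 had 30.1, 35.8, 30.9 and 46 CPM in WT, 31.3, 51.6, 35.9 and 45.7 in HET and 21.6, 24.4, 21.9 and 18.8 in KO (KO -0.73 ± 0.17 SE, edgeR adjusted p = 0.00647). COL7A1, the anchoring fibril collagen, fell by 0.95. COL24A1 fell by 1.98 at a low level, with 0.209 to 0.521 CPM in WT and 0.0301 to 0.165 in KO. It was not among the genes called with only the 8 libraries of KO and WT. COL10A1, which overlaps NT5DC1, fell by 1.42, and the COL10A1 call was lost with the small structural RNA covariate and without WT replicate 1 or KO replicate 1, 2 or 3. COL6A1, the most abundant chain, had 291, 334, 420 and 388 CPM in KO and 472, 406, 372 and 421 in HET against 273 to 337 in WT and was called in neither.

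The laminin falls at day 7 included LAMB2, LAMC1 and LAMB1. LAMB2 had 66.2, 72.9, 51.9 and 57.2 CPM in WT at day 7, 20.7, 28.8, 9.8 and 25.3 in HET and 2.78, 3.24, 5.61 and 5.89 in KO. The 3 genotypes did not overlap (KO -3.83 ± 0.34 SE, edgeR adjusted p = 1.42e-05, and HET -1.59 ± 0.31, 0.00543). LAMC1 had 109, 197, 139 and 174 CPM in WT, 51, 81.8, 50 and 85.7 in HET and 33.4, 42.9, 33.1 and 42.2 in KO, and again the ranges were apart (KO -2.03 ± 0.21 SE, edgeR adjusted p = 4.85e-05, and HET -1.26 ± 0.21, 0.00233). LAMB1 had 151, 160, 128 and 115 CPM in WT, 94.7, 106, 92.3 and 96.1 in HET and 78.3, 77.5, 84.9 and 90.6 in KO. LAMB4, its neighbour on chromosome 7, reached at most 0.516 CPM in any library. All mutant libraries were below WT for LAMB1 (KO -0.74 ± 0.14 SE, edgeR adjusted p = 0.00134), and the HET difference of -0.55 ± 0.13 was 0.42 on log2(TPM + 1), where the median of all genes was 0.46, and lost its call without HET replicate 2 or 3.

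The alpha chains differed among themselves. LAMA5 had 76.5, 146, 125 and 203 CPM in WT at day 7, 98.2, 99.6, 60.3 and 90.1 in HET and 45.5, 48.7, 53.8 and 51 in KO, all below WT in KO (-1.48 ± 0.27 SE, edgeR adjusted p = 0.00148). LAMA1 had 9.22, 10.4, 8.35 and 7.49 CPM in WT, 15.6, 14, 12.7 and 16.8 in HET and 7.34, 8.68, 10.8 and 14.5 in KO. It was called higher in HET (0.71 ± 0.22 SE, edgeR adjusted p = 0.0485), a call that leaving out any 1 of the 8 libraries removed, and not called in KO. LAMA2, LAMA3 and LAMA4 were not called at day 7. The count ratio of LAMB2 to LAMB1 ran from 0.406 to 0.497 in WT, 0.106 to 0.271 in HET and 0.0354 to 0.0661 in KO, without overlap, whereas at day 0 the 3 genotypes ran from 0.26 to 0.437.

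**Figure D5:**
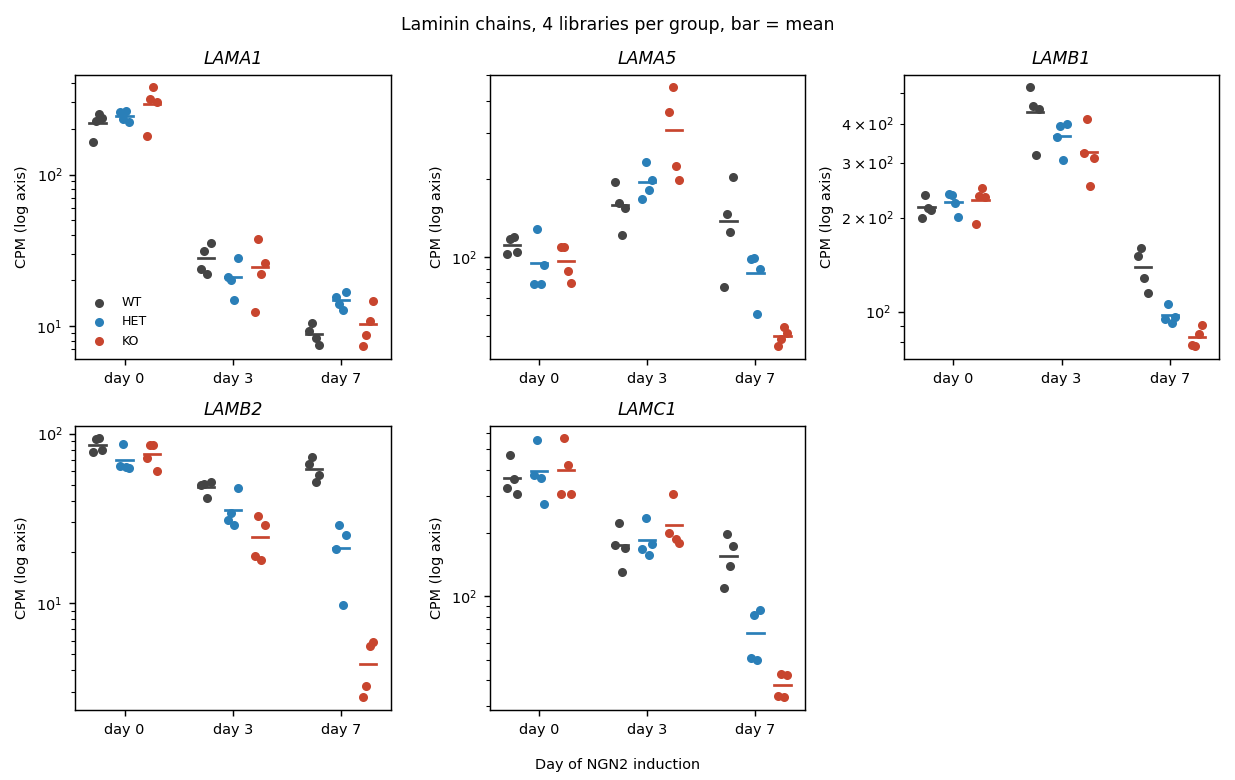
CPM of 5 laminin chains (log axes) in each library at days 0, 3 and 7 for WT, HET and KO (4 points per group; bar, mean). LAMB2 and LAMC1 separate into WT, HET and KO from high to low at day 7, and LAMA5 is highest in KO at day 3 and lowest in KO at day 7.

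HET at day 7 had 4 genes higher and 8 lower of 43, beside 8.31% and 6.1% of all genes, with medians of -0.26 and 0. The rises were COL4A1, COL4A2, COL18A1 and LAMA1, and the falls included COL1A2, COL4A5, COL4A6, COL13A1, LAMB1, LAMB2 and LAMC1. Leaving out HET replicate 1 raised the count to 20, and leaving out HET replicate 2 or HET replicate 3 lowered it to 7. The number of all genes called moved in the same way, from 3129 to 7674, 1900 and 1700. HET replicate 1 had 27.5% of its counts from a few small structural RNAs, the highest of the 36 libraries, and HET replicate 2 had 2.84%, the lowest. With that share as a covariate, 13 HET genes and 20 KO genes were called. On log2(TPM + 1) with limma 0 rose and 2 fell in HET, COL4A5 and COL16A1. Over all genes the covariate gave 2334 calls in HET and 5460 in KO, and limma gave 271 in HET.

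KO against HET at day 7 gave 0 higher and 4 lower of 43, beside 0.668% and 0.737% of all genes. These were COL1A1, COL27A1, COL26A1 and LAMB2. LAMB2 differed by -2.25 ± 0.32 SE (edgeR adjusted p = 0.00355) and COL27A1 by -1.91 ± 0.32 (0.00813). Leaving out HET replicate 3 raised the count to 8, and leaving out HET replicate 4 or any 1 KO library lowered it to 2. Over all genes 305 were called with every library and 626 without HET replicate 3. The number was 187 without HET replicate 4 and 146 to 312 without 1 KO library.

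The change of the KO to WT difference between days was tested directly over all 36 libraries. From day 0 to day 3 it was called higher for 3 and lower for 4 of 54 genes, beside 5.37% and 3.19% of all 24764 genes. From day 3 to day 7 it was higher for 5 and lower for 15, beside 7.6% and 10.9%. COL9A3 moved by -4.54 ± 0.75 SE from day 3 to day 7 (edgeR adjusted p = 4.44e-05), LAMA5 by -2.44 ± 0.32 (1.78e-06) and COL26A1 by -2.12 ± 0.31 (7.48e-06), and each of these 3 was called higher in KO at day 3 and lower at day 7. COL4A5 moved by -4.66 ± 0.73 (edgeR adjusted p = 2e-05), LAMC1 by -2.38 ± 0.31 (1.46e-06) and LAMB2 by -2.89 ± 0.36 (6.42e-07). COL4A1 moved the other way by 2.76 ± 0.54 (edgeR adjusted p = 0.000342) and COL4A2 by 1.82 ± 0.44 (0.00312). The first count was 4 without WT day 0 replicate 1 or 3 or WT day 3 replicate 1 or 4. All genes called for that change then numbered 1565 to 1680, against 2118 with every library.

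Genes that process or bind these chains were counted in 5 lists. Among all genes tested 17.0% rose and 15.6% fell in KO and 8.31% and 6.1% in HET at day 7, and 12.6% rose and 8.93% fell in KO at day 3. Of 18 tested genes for collagen hydroxylation, folding and secretion, 0 rose and 10 fell in KO at day 7 (median -0.76), and in HET 0 rose and 6 fell. FKBP10, a folding enzyme of the collagen triple helix, went from a mean of 84.5 CPM in WT to 9.58 in KO at day 7 (-3.14 ± 0.26 SE, edgeR adjusted p = 8.05e-06), and KDELR3, a retrieval receptor of the secretory pathway, fell by 3.3. At day 3, 1 of 19 rose and 6 fell in KO, led by P4HA1, a prolyl hydroxylase subunit (-1.6), and SERPINH1, the collagen chaperone (-1.36). In HET at day 3 no gene of the 5 lists was called, beside 2.52% higher and 0.761% lower among all genes. With shares that low, this is not read as a result about the lists. In WT 9 of 19 rose and 5 fell from day 0 to day 3, beside 31.2% and 28.7% of all genes.

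Of 11 tested genes for propeptide cleavage and crosslinking, 1 rose and 6 fell in KO at day 7, beside 17.0% and 15.6% of all genes. PXDN, the peroxidase that crosslinks collagen IV, rose by 1.03 ± 0.22 SE from a mean of 85.7 to 175 CPM (edgeR adjusted p = 0.00354), and LOXL4, a lysyl oxidase, fell by 3.11. Of 15 basement membrane partners 1 rose and 9 fell in KO at day 7, among them SPARC, a collagen binding protein, which went from 492 to 32.9 CPM (-3.91 ± 0.52 SE, edgeR adjusted p = 0.000212). In HET 0 rose and 2 fell. At day 3, where 12.6% of all genes rose and 8.93% fell in KO, 3 of 16 partners rose in KO, led by AGRN, the proteoglycan agrin (1.16), and 5 fell, led by FBLN2 (-2.05).

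Of 13 receptors 3 rose and 2 fell in KO at day 7, near the 17.0% and 15.6% of all genes. ITGA6, a laminin receptor subunit, rose by 3.78 ± 0.8 SE from 0.949 to 13.3 CPM (edgeR adjusted p = 0.00341), and BCAM, a receptor for LAMA5, fell by 1.84. At day 3 DDR1, a collagen receptor kinase, rose by 1.52 and ITGA11 fell by 1.9 in KO. Of 11 matrix proteases and inhibitors 3 rose and 2 fell in KO at day 7, also near the shares of all genes, with MMP16 up by 1.67 and MMP14, a membrane protease that cleaves fibrillar collagen, down by 5.49 ± 0.73 SE (edgeR adjusted p = 0.000203). At day 0 the 5 lists, with 18, 14, 16, 12 and 13 genes tested, held 2 rises, SMOC2 and MMP16, and 1 fall, LOXL1, in KO. Of all genes 1.66% were higher and 0.416% lower there. In HET at day 0 P3H2 rose and none fell, beside 1.22% and 0.411% of all genes.

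Markers of other cell types were read beside these results. All 6 neuron markers reached a mean of 1 CPM in every group. Of 8 mesenchymal or fibroblast markers, 3 reached a mean of 1 CPM in each of the 3 genotypes at day 7, where TWIST1, PRRX1, DCN, LUM and POSTN were under 1 CPM and DCN was at 0 in all WT and HET libraries. Their summed CPM ran from 19.6 to 50.9 in WT, from 45.2 to 57 in HET and from 57.2 to 83.6 in KO at day 7, where COL1A1 and COL1A2 had their lowest means in KO. THY1, which neurons also express, made up most of the sum in KO, with 4.23 to 16.4 CPM in WT, 23.9 to 49.2 in HET and 51.9 to 79.5 in KO. PDGFRB went the other way, with means of 17.6, 7.47 and 3.42 CPM, as did PDGFRA, with 5.43, 4.14 and 2.17 CPM. At day 3 the sum ran from 42.0 to 67.7 in WT, from 24.1 to 44.8 in HET and from 96.8 to 143 in KO, where PDGFRA had a mean of 62.4 CPM against 7.09 in WT and PDGFRB 38.9 CPM against 44.4. Neuron markers summed to between 1300 and 1700 CPM in WT and between 4090 and 8550 in KO at day 3, and to between 10500 and 13000 in KO at day 7. LIN28A, a stem cell RNA-binding protein, had means of 22.0 CPM in WT, 100 in HET and 230 in KO at day 7. DPPA4, another of the 6 pluripotency markers, had means of 30.5, 14.8 and 6.25 CPM, and DNMT3B 32.0, 48.5 and 53.4 CPM, while POU5F1, NANOG and TDGF1 were under 1 CPM in every group of that day. Endoderm markers summed to at most 0.571 CPM at day 7, glial markers to between 7.61 and 41.0 CPM and endothelial markers to at most 5.82. Their part in the collagen and laminin differences was not tested.

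Some of the 56 genes were too low to test. At day 0 COL19A1, COL6A5, COL28A1, LAMB3 and LAMB4 did not pass the filter, and at day 7 COL3A1, COL5A3, COL4A3, COL8A1, COL14A1, COL21A1, COL22A1, COL6A3, COL6A5, COL23A1, COL15A1, LAMB4 and LAMC3 did not. COL6A5 and LAMB4 were not tested in any comparison between genotypes, at highest values of 0.145 and 0.516 CPM in any library. LAMC3, a laminin gamma chain, had 15.3, 10.4, 12.2 and 15.4 CPM in WT at day 0 and 0.251, 0.397, 0.247 and 0.355 at day 7, and was at 0 in 3 of 4 KO libraries there.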

How the data were processed

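The authors deposited expected counts and TPM per gene for 36 libraries of rRNA-depleted total RNA. The submitters' processing notes name cutadapt 4.8, FastQC 0.11.8, MultiQC 1.20, STAR 2.7.8a, RSEM 1.3.3 and GRCh38. Annotation and strand setting are not given in the sources used here. Expected counts were rounded to whole numbers, and 4 reporter rows were left out. Each day's 12 libraries, the 12 WT libraries or all 36 (changes between days) were fitted with edgeR 4.0.16 in R 4.3.3 (TMM, filterByExpr, quasi-likelihood test, Benjamini-Hochberg over all genes tested, threshold 0.05). This test returns no SE, so each SE given with a log2 difference is the absolute difference divided by the square root of the F statistic. CPM were computed as counts over the library total. Tables and figures used Python 3.11.15, pandas 2.3.3 and matplotlib 3.10.9. On simulated counts for KO against WT at day 3 (21110 genes, 200 changed by a log2 of 2) the test recovered 100% with 2.44% false calls. The simulation gave every gene the same spread, had no shared replicate effect and changed only well-counted genes. It therefore checks that the test runs properly and does not give the recovery in these data. Alternatives were DESeq2 1.42.0 and its size factors, library size alone, limma 3.58.1 on log2(TPM + 1), no filter, a replicate block, the small structural RNA share as covariate, 8 libraries only, and leaving out each replicate. Same-numbered libraries correlated at 0.259 to 0.644 (KO, day 0), 0.128 to 0.564 (KO, day 3) and 0.166 to 0.778 (HET, day 3) in deviations from group means, over the 0.1 set for pairing, and not throughout elsewhere. The genes, gene lists and markers were chosen with earlier results of these data known. Values per library, in some of the groups, are given for the 8 genes of highest mean TPM. The same holds, per comparison with WT, for up to 4 largest rises and falls. These were taken among called genes at 1 CPM or more whose groups did not overlap. Their paralogous neighbours are named beside them, some without library values. Other genes were named after their values were seen. The results of 1 gene are not reported here.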

Additional observations from a re-analysis of the deposited data

Results flagged for a closer look

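Single libraries stood apart from the other 3 of their group in 8 of 189 groups of 4 tested over 21 genes, where chance at about 1 in 20 gives 9.45. COL6A1 had 64.5 CPM in WT day 0 replicate 2 and 40.6 to 42.7 in the others. COL22A1 had 0.364 CPM in HET day 7 replicate 1 and 0 in the others. COL13A1 had 1.17 CPM in KO day 7 replicate 4, below 2.63 to 2.7. COL9A3 had 6.55 CPM in WT day 7 replicate 1, below 21.7 to 25.5. COL11A2 had 0.989 CPM in KO day 7 replicate 2, below 1.62 to 1.65. COL5A3 had 0.303 CPM in HET day 7 replicate 1, above 0.0388 to 0.0573. COL4A5 had 19.1 CPM in KO day 3 replicate 3, below 32.4 to 33.9. COL4A6 had 15.6 CPM in HET day 3 replicate 4, above 2.82 to 3.27.

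The difference between KO and WT changed from day 0 to day 3 for 7 genes by edgeR's test of the change itself. Among these the change on the log2 scale was -3.38 for COL13A1, -2.64 for COL25A1 and -2.3 for COL14A1, and the COL25A1 call was lost without any 1 of 7 of the 16 libraries and the COL14A1 call without any 1 of 10. From day 3 to day 7 it changed for 20 genes, among them by 6.6 for COL6A3, -4.66 for COL4A5 and -4.54 for COL9A3. COL6A3 had no count in WT at day 7, so its fitted value is no measure of size, and its call was lost without any 1 of 11 of the 16 libraries, the 4 WT day 7 libraries among them.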

How the results depend on the processing

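Of 153 calls of a gene in a comparison, 58 held under every setting and 5 reversed, all on log2(TPM + 1) with limma: LAMA3 in KO at day 3 (0.05), LAMB1 in HET at day 7 (0.42), LAMA5 in WT from day 0 to 3 (-0.28), and COL1A1 (0.01) and COL6A3 (-0.01) in the KO to WT change from day 3 to 7. Limma on log2(TPM + 1) also left 80 of the 153 uncalled in the same direction. The small structural RNA covariate did so for 13, no filter for 8 and DESeq2 for 1. Adding 1 TPM flattens differences in genes well under 1 TPM. Numbers of genes called that moved by over 1.5 times follow. With limma they were 0 in HET at day 0, 1 in KO, 0 in HET and 0 in KO against HET at day 3, 6 in KO, 2 in HET and 0 in KO against HET at day 7, and 1 and 7 for the changes from day 0 to 3 and 3 to 7. The median of all genes was then 0.2 (KO, day 3), 0.18 (KO, day 7), 0.13 (HET, day 3), 0.46 (HET, day 7), -0.22 (KO against HET, day 7), -0.38 (WT, day 0 to 3) and 0.16 (change from day 0 to 3). With edgeR these medians lay between -0.05 and 0.07. With DESeq2 the numbers of genes called were 4 in HET at day 0, 3 and 9 in KO against HET at days 3 and 7, and 11 for the change from day 0 to 3. With the replicate block they were 4 in KO and 1 in KO against HET at day 0, and 26 in KO, 7 in HET and 7 in KO against HET at day 3. In HET at day 3 the count was 1 with library size alone, 1 with no filter and 1 with 8 libraries only, and in HET at day 7 it was 7 with 8 libraries only. With the small structural RNA share as covariate KO against HET gave 3 at day 3 and 10 at day 7. Of alternatives chosen after seeing the data, leaving out replicate 4 gave 6 in HET and 3 in KO against HET at day 3, and leaving out WT and HET replicate 1 gave 20 in HET at day 7. Leaving out 1 library gave 2 to 3 (KO), 1 to 2 (HET) and 0 to 0 (KO against HET) at day 0, 14 to 17, 1 to 6 and 1 to 4 at day 3, 20 to 23, 7 to 20 and 2 to 8 at day 7, 35 to 36 and 28 to 31 for the WT steps, and 4 to 7 and 14 to 20 for the changes of the KO difference. The number of all genes called also moved with the setting. In KO at day 3 it went from 4649 to 816 with limma and to 8138 with the replicate block. In HET at day 7 it went from 3129 to 271 with limma. Depth limits genes near 3 counts per library, such as COL6A5 and LAMB4.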

Other observations

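The chains of 2 other collagens also parted. The ratio of COL6A1 to COL6A2 counts ran from 1.86 to 2.31 in WT at day 0, from 10.2 to 24.3 at day 3 and from 4.67 to 9.66 at day 7, where KO libraries ran from 10.2 to 20.5, above every WT library. The ratio of COL1A1 to COL1A2 counts ran from 1.54 to 3.84 in WT at day 7 and from 0.0357 to 0.707 in KO, and at day 3 from 4.65 to 8.85 in WT and from 1.7 to 2.54 in KO, without overlap at either day. The day 7 ratios in KO rest on 23, 29, 1 and 10 counts of COL1A1 over 96, 41, 28 and 21 of COL1A2. HET overlapped with WT, from 1.23 to 11.7 at day 7 and from 6.05 to 13.5 at day 3. The ratio of LAMA5 to LAMA1 counts ran from 8.3 to 27.0 in WT at day 7, from 4.73 to 7.14 in HET and from 3.51 to 6.21 in KO. None of these ratios is corrected for transcript length.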
